A study of Mus musculus with 2 samples.

Results

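The miR-17-92 cluster is a group of 6 microRNA hairpins that are cut from a single primary transcript, made from the host gene Mir17hg on mouse chromosome 14. The members are Mir17, Mir18, Mir19a, Mir20a, Mir19b-1 and Mir92-1, taken by symbol and position, and all 6 were among the 1973 microRNA genes counted. They were counted in 2 libraries of short RNA, under 30 bases, from total RNA of the midbrain of B6NCrl mice on postnatal day 0. The libraries form 1 group, pup 1 (biological replicate 1) and pup 3 (biological replicate 2), with no treatment, second age or second tissue. Each library came from the whole midbrain of a single pup, sex was not collected, and both samples carry the same donor identifier although they name different pups, so the spread between them is that between 2 pups as labelled.

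The cluster is best known from dividing cells. MYC and E2F factors activate it in proliferating progenitors and in tumours, where its products lower the cyclin-dependent kinase inhibitor p21 and the pro-apoptotic protein BIM. In the embryonic brain it promotes the expansion of neural progenitors, and endothelial and blood-forming cells express it as well. Its products fall into 4 seed families, since a microRNA recognises its targets mainly through bases 2 to 8, the seed. The cluster has paralogs: Mir106b, Mir93 and Mir25 within Mcm7 on chromosome 5, and Mir106a, Mir18b, Mir20b, Mir19b-2, Mir92-2 and Mir363 on chromosome X, while Mir92b on chromosome 3 stands alone.

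The mature sequences show which products share targets and which share reads. They are given 5′ to 3′ with the seed in capitals, from RefSeq on GRCm38.p6, and all 16 hairpins of the cluster and its paralogs had an entry. The arm shown is the one that carries the family seed. Mir17 and Mir20a share the seed AAAGUGC with 4 paralogs, and the sequences of this family with the highest levels here were these.
Mir17: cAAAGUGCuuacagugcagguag
Mir20a: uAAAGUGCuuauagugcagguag
Mir106b: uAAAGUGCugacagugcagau
Mir93: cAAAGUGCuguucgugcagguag
Mir17 and Mir20a differ at 2 of 23 positions (C1U and C12U, counted from 1 at the 5′ end, the base of Mir17 first), and Mir17 and the X-linked Mir106a at 1 (U10A).

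Mir18 differs from that family inside the seed, AAGGUGC, which it shares with Mir18b alone.
Mir18: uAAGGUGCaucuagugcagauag
Mir18b: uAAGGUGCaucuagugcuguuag
The miR-19 family, seed GUGCAAA, has 3 hairpins, and the products of Mir19a and Mir19b-1 differ at 1 of 23 positions (U11C).
Mir19a: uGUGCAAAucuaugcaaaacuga
Mir19b-1: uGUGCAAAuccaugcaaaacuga
The last member, Mir92-1, has the seed AUUGCAC, as do Mir92b, Mir25, Mir92-2 and Mir363.
Mir92-1: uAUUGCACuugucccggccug
Mir92b: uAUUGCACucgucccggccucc
Mir25: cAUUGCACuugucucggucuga

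Of the 6 members, 2 make a mature microRNA that another hairpin also makes letter for letter. The mature sequence of Mir19b-1 is also in Mir19b-2, and that of Mir92-1 is also in Mir92-2, both on chromosome X. The hairpins are shown with the longest run common to each pair in capitals.
Mir19b-1: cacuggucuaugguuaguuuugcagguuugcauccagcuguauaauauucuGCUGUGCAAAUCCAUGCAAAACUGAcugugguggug
Mir19b-2: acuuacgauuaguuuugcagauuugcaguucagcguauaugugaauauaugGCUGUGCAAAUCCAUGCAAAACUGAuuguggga
Mir92-1: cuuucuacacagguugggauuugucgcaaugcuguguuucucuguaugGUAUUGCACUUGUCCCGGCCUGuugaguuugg
Mir92-2: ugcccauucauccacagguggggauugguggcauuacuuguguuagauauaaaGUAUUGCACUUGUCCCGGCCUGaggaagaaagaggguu
The run is 25 bases long for the miR-19b pair and 22 for the miR-92a pair, which is 2 and 1 bases longer than the mature sequence. A read that lies wholly within it fits both loci. The tables hold such reads in a row of their own (38.7% and 39.8% of all reads) and under no gene, so the counts of Mir19b-1 and Mir92-1 are those left after this loss, whose size is unknown. For Mir17, Mir18, Mir19a and Mir20a the run shared with any other hairpin of the RefSeq table was at most 17 bases, and no exact copy of their mature sequences was found in it. The genome as a whole was not searched.

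On GRCm38 the 6 hairpins lie in transcript order within 836 bases on the plus strand of chromosome 14, from 115043671 to 115044506. All are inside exon 2 (115043271 to 115046727) of the noncoding RNA Mir17hg (ENSMUSG00000089726.2). Mir17 (ENSMUSG00000065508.1) spans 115043671 to 115043754, Mir18 (ENSMUSG00000065403.1) 115043851 to 115043946 and Mir19a (ENSMUSG00000065416.1) 115044000 to 115044081. Mir20a (ENSMUSG00000065442.1) spans 115044157 to 115044263, Mir19b-1 (ENSMUSG00000076256.1) 115044305 to 115044391 and Mir92-1 (ENSMUSG00000076062.1) 115044427 to 115044506. The gaps between neighbours are 96, 53, 75, 41 and 35 bases. No gene is annotated on the opposite strand of the cluster, and no member had a count there in either pup.

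All 6 members passed the detection limit of 10 counts in both libraries, against a background of 18.2% of the 1973 hairpins. The own strand of genes held 2337113 counts in pup 1 and 3195277 in pup 3, and levels are given as CPM, counts per 1000000 of these, with the mean ± SD over n = 2 pups. The members together held 33173 counts in pup 1 and 51803 in pup 3, or 14194 and 16212 CPM (15203 ± 1427). That was 1.42% of the counted reads in pup 1 (exact 95% binomial interval 1.40 to 1.43) and 1.62% in pup 3 (1.61 to 1.64). Intervals cover counting error only. The midbrain was bulk tissue, so fewer cells with the cluster and less of it in each cell cannot be told apart.

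The members of the miR-17 seed family had the highest levels. Mir17, the first hairpin and the one that lends the family its name, had 19254 counts (8238 CPM) in pup 1 and 30363 (9502 CPM) in pup 3, with a mean of 8870 ± 894 CPM and rank 26 among all hairpins. Mir20a, the second member of this family, had 3043 in pup 1 and 3348 CPM in pup 3 (mean 3196 ± 216, rank 63). Every value of Mir17 was above every value of Mir20a, by 2.71-fold in pup 1 and 2.84-fold in pup 3. Mir18, whose product has been reported to target the oestrogen receptor, had 2168 and 2777 CPM (mean 2472 ± 431, rank 73).

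The other members had lower counted levels. Mir92-1, of the family with a role in vessel growth, had 1626 counts (696 CPM) in pup 1 and 1673 (524 CPM) in pup 3, with mean 610 ± 122 CPM at rank 124. Mir19a had 92 and 167 counts, or 39.4 and 52.3 CPM (mean 45.8 ± 9.12, rank 260). Mir19b-1 had 23 and 29 counts, or 9.84 and 9.08 CPM (mean 9.46 ± 0.541, rank 316). The miR-19 hairpins, whose products are the main oncogenic part of the cluster in lymphoma models, were thus the lowest of the 6 in both pups, although the counts of Mir19b-1 lack any read that fits Mir19b-2 too. Mir19a has no exact copy in the table, and its level was 209-fold below that of Mir17 in pup 1 and 182-fold below in pup 3. Its product differs from that of Mir19b-1 and Mir19b-2 at 1 of 23 positions, and the mismatch limits of the alignment are not known. Whether reads of Mir19a were lost in this way too was not tested.

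The order Mir17, Mir20a, Mir18, Mir92-1, Mir19a, Mir19b-1 was the same in both pups, and no neighbours in it overlapped within 1 SD of their means. The smallest step was from Mir20a to Mir18, 1.40-fold in pup 1 and 1.21-fold in pup 3. Each read of this assay can cover a whole mature microRNA, so CPM does not grow with hairpin length, but a level per length was computed as well. Per 100 bases of annotated hairpin the order was kept, from 10560 ± 1064 CPM for Mir17 to 10.9 ± 0.622 CPM for Mir19b-1. On that scale Mir20a (2987 ± 202) and Mir18 (2575 ± 449) were no longer apart by their SDs. The largest steps were from Mir92-1 to Mir19a, 17.7-fold in pup 1 and 10.02-fold in pup 3, and from Mir19a to Mir19b-1, 4.0-fold and 5.76-fold.

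Levels along the transcript rose and fell without following position. From Mir17 to Mir18 the level was 3.80-fold lower in pup 1 and 3.42-fold lower in pup 3. From Mir18 to Mir19a, only 53 bases further on, it was 55.1-fold and 53.1-fold lower. Mir20a was then 77.3-fold and 64.1-fold above Mir19a, and Mir19b-1 309-fold and 369-fold below Mir20a. Mir92-1, the last hairpin, was 70.7-fold and 57.7-fold above Mir19b-1, with both values uncertain through the shared reads. These folds are ratios of CPM. The counts do not separate the arms of a hairpin, so a step between hairpins is a step in reads counted over both arms.

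**Figure D1:**
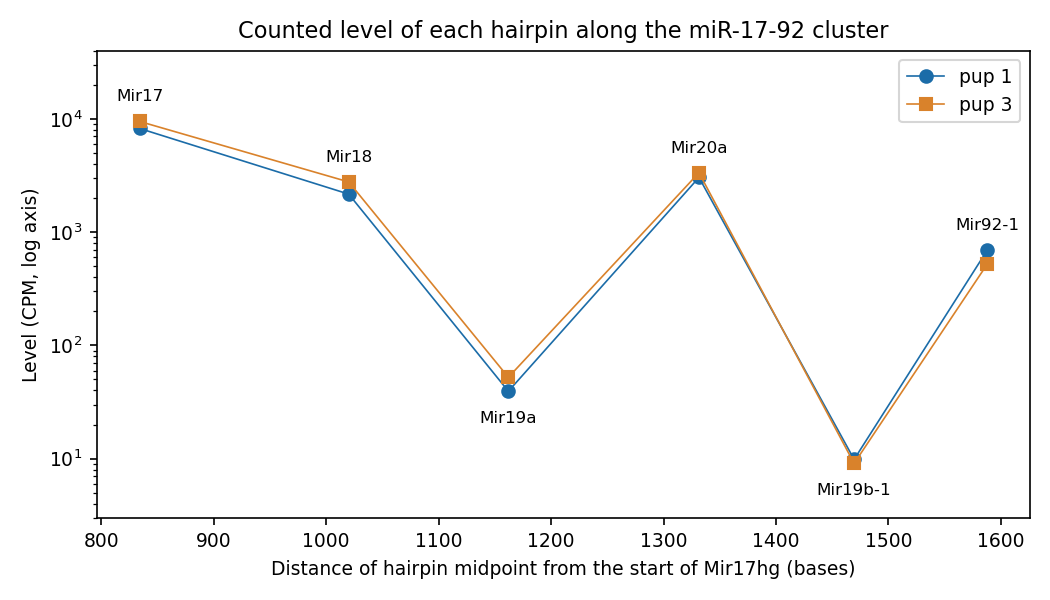
Level of each miR-17-92 hairpin in CPM (log axis) against the distance of its midpoint from the start of Mir17hg in bases, with circles for pup 1 and squares for pup 3. Mir19a and Mir19b-1 form 2 troughs, at 45.8 and 9.46 CPM on average, between Mir18, Mir20a and Mir92-1.

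As shares of the cluster's own counts, 3 hairpins held nearly everything. Mir17 held 58.0% of the cluster in pup 1 and 58.6% in pup 3, with exact 95% intervals of 57.5 to 58.6 and 58.2 to 59.0. Mir20a held 21.4% (21.0 to 21.9) and 20.7% (20.3 to 21.0), and Mir18 held 15.3% (14.9 to 15.7) and 17.1% (16.8 to 17.5). Together these 3 came to 94.8% and 96.4%. The intervals of the pups overlapped for Mir17 and Mir20a and did not overlap for Mir18.

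Mir92-1 held 4.90% of the cluster in pup 1 (4.67 to 5.14) and 3.23% in pup 3 (3.08 to 3.39), again without overlap. Mir19a held 0.277% (0.224 to 0.340) and 0.322% (0.275 to 0.375), and Mir19b-1 0.0693% (0.0440 to 0.104) and 0.0560% (0.0375 to 0.0804), with overlap for both. So the shares of Mir18 and Mir92-1 differed by more than counting error, in opposite directions. Overlap of intervals does not show that the other shares were equal. For Mir20a it was narrow, from 20.9985% (lower end in pup 1) to 21.0045% (upper end in pup 3). The tables hold 1 library per pup, so no spread within a pup can be set against any such difference.

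**Figure D2:**
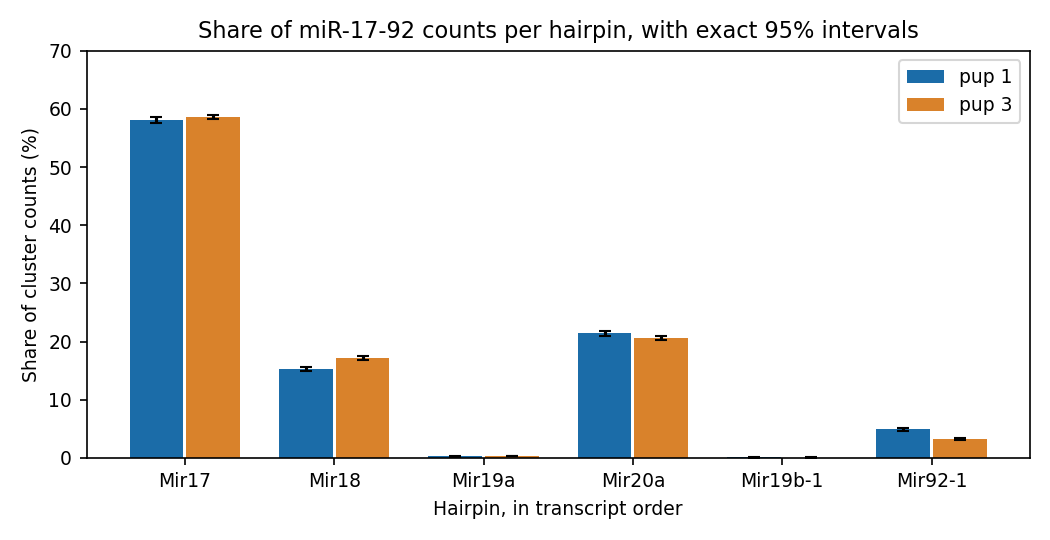
Share of the miR-17-92 counts held by each hairpin, in percent, with bars for pup 1 and pup 3 and exact 95% binomial intervals as error bars. Mir17 is at 58.0% and 58.6%, and Mir92-1 is lower in pup 3 (3.23%) than in pup 1 (4.90%).

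The paralogs place each seed family in context, and 9 of the 10 were detected. For the seed AAAGUGC, Mir106b had 4162 in pup 1 and 5095 CPM in pup 3, above Mir20a in both. Mir93 had 3533 and 3853 CPM. The X-linked Mir106a (52.6 and 46.9 CPM) and Mir20b (47.1 and 54.5 CPM) were far lower. The product of Mir106a differs from that of Mir17 at 1 of 23 positions. Whether reads of either were lost through this likeness was not tested. Over these 6 hairpins the family came to 20489 ± 1996 CPM, of which Mir17 and Mir20a held 59.1% in pup 1 and 58.7% in pup 3. The only other hairpin of the RefSeq table with this seed, Mir6383, was not detected.

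Mir18 accounted for 98.9% and 99.0% of its family's counts, Mir18b having 23.5 and 27.5 CPM. The 3 hairpins of the miR-19 family came to only 58.0 ± 6.44 CPM, and Mir19b-2, with 10 counts in pup 1 and 4 in pup 3, did not pass the detection limit. Reads of the miR-19b product that fit both of its hairpins are in none of these values.

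For the seed AUUGCAC Mir92-1 held a small share of the counted reads. Mir92b had 3195 in pup 1 and 2324 CPM in pup 3, 4.59-fold and 4.44-fold above Mir92-1. Mir25 had 267 and 281 CPM, Mir363 211 and 216 CPM, and Mir92-2 19.3 and 17.8 CPM. Mir92-1 held 15.9% and 15.6% of the counts of these 5 hairpins, a share that leaves out reads common to Mir92-1 and Mir92-2. A further detected hairpin with this seed, Mir32, is no paralog of the cluster and was named after its value was seen (186 and 214 CPM).

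**Figure D3:**
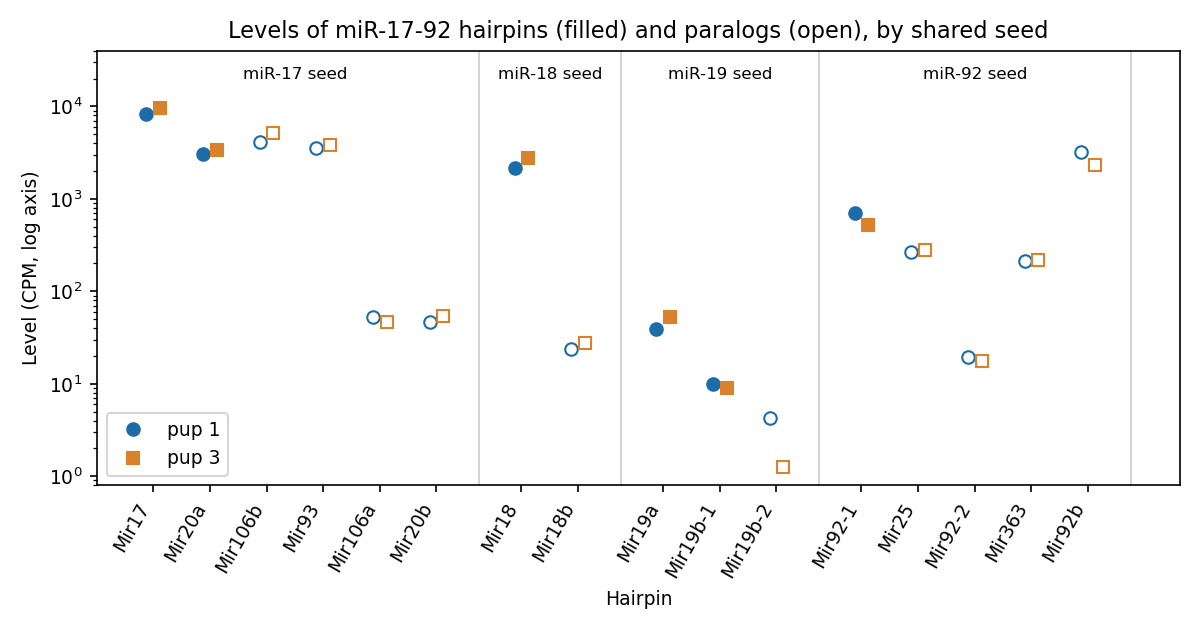
Levels in CPM (log axis) of the 6 miR-17-92 hairpins (filled symbols) and their 10 paralogs (open symbols), grouped by shared seed, with circles for pup 1 and squares for pup 3. In the miR-17 seed group Mir17 is highest, in the miR-92 seed group Mir92b (3195 and 2324 CPM) lies above Mir92-1, and the miR-19 seed group has no hairpin above 52.3 CPM.

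Taken by locus, the 6 members held more than the paralogs together. The miR-106b-25 hairpins came to 7963 in pup 1 and 9229 CPM in pup 3, and the 6 X-linked hairpins to 358 and 364 CPM. With Mir92b included, all 16 hairpins came to 26920 ± 1711 CPM, and the miR-17-92 members made up 55.2% of that in pup 1 and 57.6% in pup 3. Reads common to the chromosome 14 and X loci are again outside these sums.

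Outside the family, the detected hairpins nearest to Mir17 in mean level were Mir153 (9302 ± 849 CPM), a microRNA of neurons, just above and Mir125a (8866 ± 709 CPM) just below. Neighbours were chosen by mean CPM, and the mean log2 differences of these from Mir17 over the 2 libraries were 0.07 and 0.00. The value of Mir125a averages opposite differences. It was above Mir17 in pup 1 (9367 against 8238 CPM) and below it in pup 3 (8365 against 9502 CPM). Mir20a lay between Mir15a (3203 ± 3.94 CPM), of a family that restrains the cell cycle, and Mir125b-1 (3136 ± 126 CPM). Mir18 lay between Mir296 and Mir101b, Mir92-1 between Mir129-2 and Mir29a, Mir19a between Mir1198 and Mir879, and Mir19b-1 between Mir211 and Mir7666. With 2 libraries no pattern across samples could be ranked.

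The pups were compared by Fisher's exact test (two-sided) of each hairpin's counts against the rest of its library, adjusted by Benjamini-Hochberg over the 286 hairpins whose counts averaged 50 or more. The ratio of pup 3 to pup 1, and so the direction of a change, was taken after TMM scaling in edgeR. The test used unscaled library totals, so test and direction can disagree where a change is small. Mirlet7d was such a case, with 9473 and 9700 CPM, a log2 ratio of -0.02 and an adjusted p of Fisher's exact test of 0.0134. Such a test speaks of these 2 libraries alone, without a check from replicates. Of the 6 members 5 had enough counts, and 0 were called different, for which the adjusted p had to be below 0.05 and the change 2-fold or more. The background for that call was 1.75% of the tested hairpins. Without the fold threshold 4 members passed, where 57.3% of all tested hairpins did. Of these 4, 3 were higher in pup 3 (background 33.9%) and 1 was higher in pup 1 (background 23.4%), and with so high a background a share of 5 members is not a result about the cluster.

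The direction of the small differences was not uniform. Mir17 was 1.11-fold higher in pup 3 (exact 95% counting interval 1.09 to 1.13, adjusted p of Fisher's exact test 4.69e-54), Mir18 1.24-fold (1.19 to 1.28, adjusted p 6.90e-45) and Mir20a 1.06-fold (1.03 to 1.09, adjusted p 1.32e-09). Mir19a had a ratio of 1.28 (0.987 to 1.67) with an adjusted p of 0.0556 by the same exact test. Mir92-1 was instead 1.38-fold higher in pup 1 (1.29 to 1.48, adjusted p 1.94e-15). Mir19b-1, below the count minimum, had a ratio of 0.892 with an interval of 0.497 to 1.61. The median log2 ratio of the 5 tested members was 0.15, beside 0.01 over all tested hairpins, whose median absolute log2 ratio was also 0.15.

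Among the 9 tested paralogs 3 passed without the fold threshold, where 57.3% of all tested hairpins did. With so high a background this count is not a result about the paralogs. Mir106b was 1.18-fold higher in pup 3 (1.15 to 1.21) and Mir93 1.05-fold (1.02 to 1.08). Mir92b, like Mir92-1, was higher in pup 1, by 1.42-fold (1.38 to 1.47). Mir25, Mir363 and Mir92-2, which have the same seed as Mir92b, had ratios of 1.01 (0.915 to 1.13), 0.986 (0.877 to 1.11) and 0.895 (0.594 to 1.35) and did not pass, nor did Mir106a, Mir18b and Mir20b. None of the 9 tested paralogs reached 2-fold, where 1.75% of all tested hairpins were called different at that threshold.

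**Figure D4:**
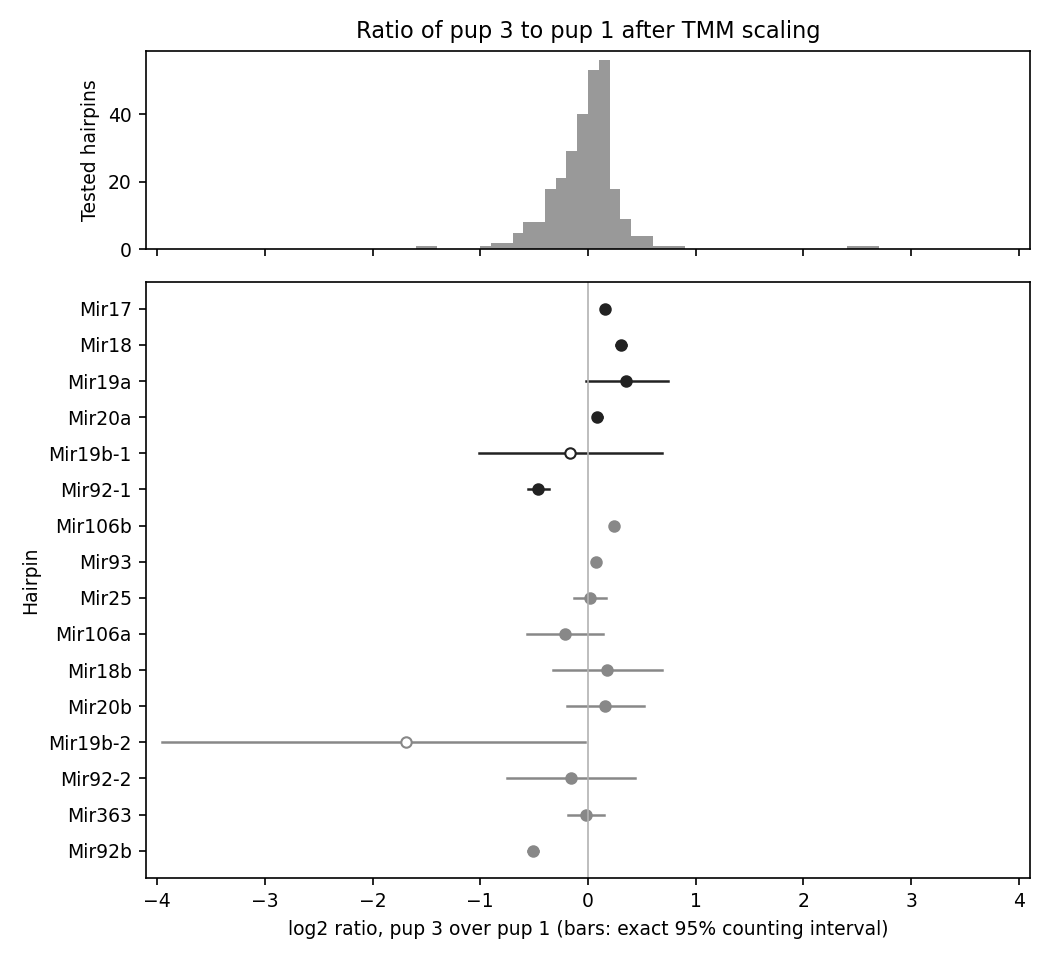
Upper panel: number of tested hairpins by log2 ratio of pup 3 to pup 1 (n = 286, bins of 0.1). Lower panel: the log2 ratio of each miR-17-92 hairpin (black) and paralog (grey) with its exact 95% counting interval, open circles being hairpins under the count minimum. Mir92-1 (-0.46) and Mir92b (-0.51) lie left of 0, and Mir17 (0.15), Mir18 (0.31) and Mir106b (0.24) right of it.

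GC content was read beside these ratios, and its part in them was not tested. The share of GC in the hairpin was 67.5% for Mir92b (log2 ratio -0.51), 63.1% for Mir25 (0.02), 57.3% for Mir106b (0.24) and 55.7% for Mir93 (0.07). The X-linked Mir106a (43.1%, -0.22), Mir92-2 (47.3%, -0.16) and Mir363 (41.3%, -0.02) had negative log2 ratios. Mir18b (47.0%, 0.17) and Mir20b (46.25%, 0.16) had positive ones. Mir92-1, at 47.5%, was close to Mir17 (45.2%) and Mir18 (43.8%) in hairpin GC and below the median of the tested hairpins. In the mature sequence with the family seed, GC was 57.1% for Mir92-1, the highest among the members. It was 47.8% for Mir17, 43.5% for Mir18, 39.1% for Mir20a and Mir19b-1, and 34.8% for Mir19a. Across the 249 tested hairpins with a RefSeq sequence, hairpin GC share and log2 ratio had a Spearman's rho of -0.17, a description across hairpins of 2 libraries. A linear trend on hairpin GC was removed in an alternative added after the data were seen. Mir92-1 then had a log2 ratio of -0.48, compared with -0.46 before, and Mir17 one of 0.13, compared with 0.15. GC of the mature sequence was not in that trend, so these values do not show the part of GC in the ratios.

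Markers of endothelium, red cells, and microglia and leukocytes were read beside the cluster. No list of markers of dividing progenitors was used. The marker of endothelium, Mir126a, was counted at 36188 in pup 1 and 30095 CPM in pup 3, a ratio of 0.802 (0.795 to 0.810), while its neighbour Mir126b was under no gene of its own. The 3 red cell hairpins (Mir451a, Mir144 and Mir486) were all detected, and their sum was 125 in pup 1 and 74.2 CPM in pup 3. Of these, Mir451a was among the 5 hairpins called different, with 86.4 and 31.0 CPM. Mir144, from the same locus, was counted at 20.1 and 29.1 CPM, in the other direction, and did not pass (adjusted p of Fisher's exact test 0.0684). In the microglia and leukocyte list 3 of 5 were detected, with sums of 611 and 550 CPM. Mir142 was under no gene of its own, and Mir142b, annotated on the opposite strand of that locus, had 0 own-strand counts but 590 and 931 counts on the strand of Mir142, which are not in these sums. The part of these cells in the ratios of the members was not tested.

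For neurons, 6 of 10 listed hairpins were detected, and the list summed to 41656 in pup 1 and 46747 CPM in pup 3. The sum was carried by Mir137 (22082 and 26512 CPM) and Mir153, both higher in pup 3. Mir128-1 (7885 and 7512 CPM) and Mir128-2 (2576 and 2419.8 CPM) passed in the other direction, and the median log2 ratio of the 5 tested hairpins was -0.10, opposite in sign to that of the sum. The 3 hairpins of miR-124, the most abundant microRNA of neurons, make the same mature sequence, so reads of it fit several places and the 2.14 to 11.6 CPM counted under them do not measure its level. The oligodendrocyte list, 3 of 3 detected, summed to 1656 and 1549 CPM, and the mural list, 2 of 2 detected, to 7214 and 7123 CPM. The epithelial and choroid plexus list, with 6 of 8 detected, summed to 2379 and 2855 CPM and held 3 of the 5 hairpins called different among the 286 tested. These were the epithelial Mir200b, Mir200c and Mir429, which were 6.30-fold, 5.97-fold and 5.49-fold higher in pup 3. Mir204, a choroid plexus marker, was instead lower in pup 3 (1349.5 and 1178 CPM, adjusted p of Fisher's exact test 6.50e-08). Mir34c, of the same list, was higher in pup 3 (907 and 1052 CPM, adjusted p of Fisher's exact test 2.75e-07). Mir34b had a ratio of 1.12 (0.815 to 1.56) and did not pass. The let-7 family, which accumulates as progenitors differentiate, had 10 of 12 hairpins in the tables, all detected, and summed to 123280 in pup 1 and 124948 CPM in pup 3. Its median log2 ratio was -0.04, with changes in both directions. Mirlet7g (67879 and 75541 CPM) was higher in pup 3, and Mirlet7i (29091 and 23813 CPM) and Mirlet7b (8008 and 7034 CPM) were lower. Without the fold threshold 5 of the 10 passed (background 57.3%). Of these, 2 were higher in pup 3 (background 33.9%) and 3 higher in pup 1 (background 23.4%). Other hairpins of these lists are also numbered copies of the same microRNA, such as Mirlet7a-1 and Mirlet7a-2, Mir128-1 and Mir128-2, or Mir219a-1 and Mir219a-2. Any of their reads that fit several places are likewise in none of these values, and the size of that loss is unknown.

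The spread within the cluster was compared with that in other groups of hairpins on 1 strand within 10 kb of each other. From the highest to the lowest member it was 9.71 on the log2 scale in pup 1 and 10.03 in pup 3 (mean 9.87 ± 0.228). The 11 other groups with at least 3 detected hairpins ran from 1.36 to 12.70 with a median of 5.98. A larger spread was found in 2 of them, both of the imprinted Dlk1-Dio3 region on chromosome 12 and both with more hairpins, 31 and 11 detected. The paralog groups spanned 4.07 ± 0.154 (Mir106b to Mir25) and 3.52 ± 0.10 (Mir363 to Mir92-2), although the latter leaves out Mir19b-2, which was not detected. Without Mir19b-1 and Mir92-1, the members with a copied mature sequence, the miR-17-92 spread was 7.61, from Mir17 to Mir19a. No test was made of these spreads, since the groups differ in size and in how many of their reads fit several places.

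**Figure D5:**
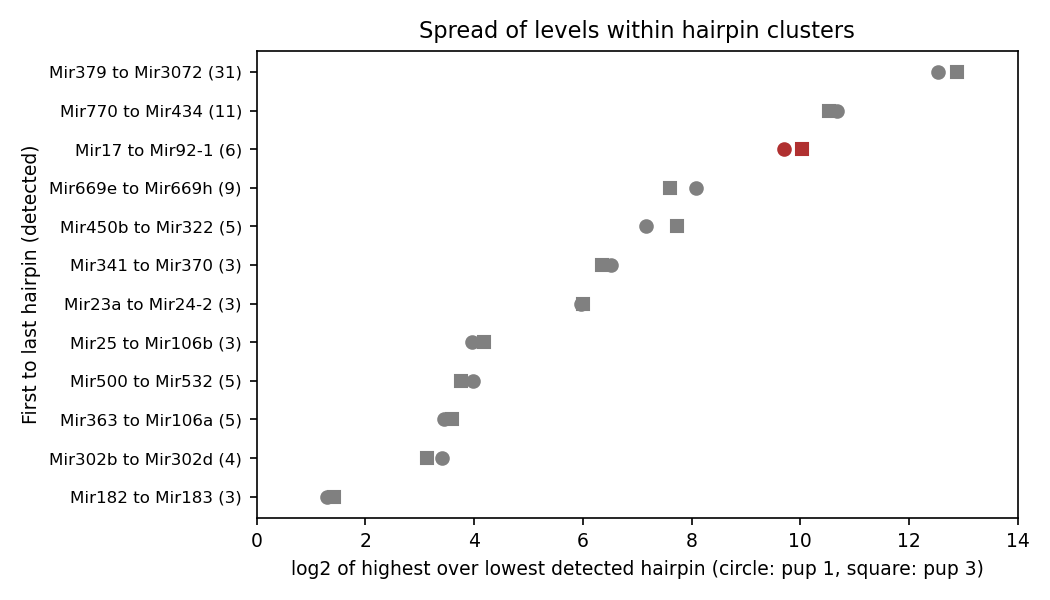
The log2 ratio of the highest to the lowest detected hairpin in each group of hairpins on 1 strand within 10 kb (circles pup 1, squares pup 3), with the number of detected hairpins in brackets. The miR-17-92 cluster (red), at 9.71 and 10.03, has the third highest mean of 12 groups.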

How the data were processed

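Short RNA from the midbrain of 2 newborn mice was sequenced. The authors deposited raw read counts per gene, made from alignments to assembly mm10 with GENCODE M4, per the file headers and labels. Not given in the sources used here are the aligner, the counter, adapter trimming and mismatch limits. Each table has 3 count columns (either strand, own strand, opposite strand), and the own-strand column was used. A further 4 rows name no gene (unmapped, several places, no feature, ambiguous). They took 57.2% and 56.7% of reads and stayed out of library sizes.

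Identifiers were matched without version to GENCODE M21 on GRCm38 (1894 of 1973 had a symbol). Ratios used TMM in edgeR 4.0.16 over hairpins with a mean count of at least 50 and a prior count of 0.5. Fisher's exact tests, binomial intervals and Benjamini-Hochberg adjustment were run with SciPy 1.17.1 or own code. Recovery of known ratios and calls of changed hairpins were tested first on simulated data, at a lower fold threshold. That check did not cover the intervals or false calls among unchanged hairpins. A count of 0 allows 3 counts, or 1.28 (pup 1) and 0.939 (pup 3) CPM. With 1 group no conditions were compared. Hairpins named in the text are the 6 members, the 10 paralogs, the nearest hairpin on either side of each member in level, and cell type markers. The members and lists were chosen with earlier results of these data known. Alternatives were other strand columns, totals, scalings (among them DESeq2 1.42.0), prior counts, filters, fold thresholds, cluster distances, length scaling and each pup alone. The trend on hairpin GC was added after seeing the data.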

Additional observations from a re-analysis of the deposited data

How the results depend on the processing

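Depth limits Mir19b-1 (23 and 29 counts) and Mir19a (92 and 167) most, and reads that fit several places limit Mir19b-1 and Mir92-1. The total of the cluster, 15203 CPM, was 18148 CPM when the most abundant hairpin was left out of the library total and 6545 when all reads of the table were the total. It ran from 14194 to 16212 CPM with either pup alone. The share of Mir17, 58.3% of the cluster, was 62.3% with counts per base of hairpin and 60.8% without Mir19b-1 and Mir92-1. The log2 ratio of highest to lowest member, 9.87, was 7.61 without those 2, since the lowest member was then Mir19a. The number of members called different between the pups was 0, and 4 at any fold, where 164 of 286 hairpins passed. With DESeq2 size factors, plain CPM, a prior count of 2, either-strand counts or the GC trend removed, the log2 ratios of the 5 tested members kept their direction. No paired analysis was possible because there is 1 group.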
